A study of Mus musculus with 10 samples.

Results

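These are the places in the genome of mouse pre-iPSCs where the co-repressor scaffold Sin3a was found in both cell lines in which it was precipitated, and where no FLAG-tagged Nanog peak was listed in either line with Nanog. The members were chosen by the presence and absence of peaks: peaks of the 4 deposited lists that shared at least 1 base were merged, and regions with a peak in both Sin3a lists and in neither FLAG list were kept. This gave 742 of 45707 merged regions (1.62%), or 5.42% of the 13693 regions with a Sin3a peak in both lists (95% interval 5.05 to 5.81%). Of the 2409 regions with a Sin3a peak and no FLAG peak, 30.8% were members, and the others had a Sin3a peak in 1 line only. All coordinates are of mouse build mm9.

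Sin3a has no sequence-specific DNA-binding domain of its own. It is brought to chromatin by DNA-binding partners, among them the Mad family and REST, and it carries the histone deacetylases Hdac1 and Hdac2, whose activity is linked mostly to repression of nearby genes. Nanog is a homeodomain transcription factor of the pluripotency network. Sin3a sites without a Nanog peak are of interest as the part of Sin3a binding that Nanog peaks do not cover.

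All samples were pre-iPSCs, partly reprogrammed cells made from female neural stem cells of 129/MF1 background, with an Oct4-GFP-IRES-puro reporter, grown in serum and LIF. PiggyBac vectors with the CAG promoter had been stably integrated, followed by drug selection, so each line is a selected transfected population. The groups were Sin3a ChIP from cells with Nanog (FLAG) + Sin3a (the Nanog + Sin3a line), Sin3a ChIP from cells with Sin3a + EV (the Sin3a line), FLAG ChIP from cells with Nanog (FLAG) + EV (the Nanog line), and FLAG ChIP from the Nanog + Sin3a line. Each group had 2 replicates, and 1 input and 1 IgG sample were not analysed here. The Sin3a antibody cannot tell added from endogenous Sin3a, both lines with Sin3a ChIP carried added Sin3a, and the FLAG antibody does not see untagged Nanog.

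Each group was deposited as 1 peak list with no values for single replicates, so no difference could be set against replicate spread. The 4 lists held 17168 to 38485 peaks. Read totals per library were not used here. Depth is known only from the weight of 1 fragment in the pileup of each list and from the number of ChIP fragments over each summit. That number could be worked out from the authors' fold enrichment and p-value, under an assumed form of both, for 99.5% or more of every list. Intervals are 95% intervals that cover counting error only, since regions are not replicates. The absence of a FLAG peak means that none was listed, not that Nanog was absent. Where the control was at its lowest level, the weakest listed FLAG peak had a fold of 2.71 in the Nanog + Sin3a line (20 fragments) and of 2.92 in the Nanog line (18 fragments). Where the control was higher, a listed peak could have a lower fold, such as the 2.42 of the Nanog line in the region at chr9:121206887-121208269.

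The Sin3a signal at these sites was modest. The fold had a median of 4.11 in the Nanog + Sin3a line (interval of the median 3.99 to 4.12, range 2.23 to 10.6) and of 3.94 in the Sin3a line (3.87 to 4.0, range 2.18 to 10.1). At the 12951 regions with both Sin3a peaks and a FLAG peak, the median fold was 5.33 in the Nanog + Sin3a line and 5.29 in the Sin3a line. The members' summits held a median of 33 fragments in the Nanog + Sin3a line and 38 in the Sin3a line, against 44 and 52 at regions with a FLAG peak. These folds decide whether a peak is listed and so bear on the choice of members. They are a description, with no test.

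**Figure D1:**
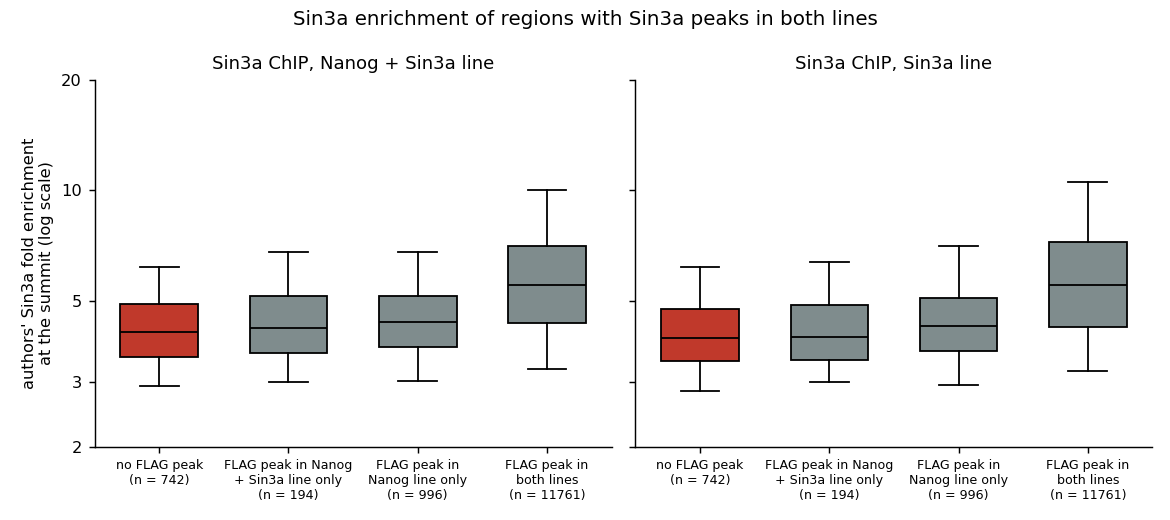
Authors' Sin3a fold enrichment at the summit (log axis) for regions with Sin3a peaks in both lines, split by FLAG peaks; boxes span the quartiles, the line is the median and whiskers reach the 5th and 95th percentiles. The members (red, n = 742) have medians of 4.11 and 3.94, closer to regions with a FLAG peak in 1 line than to the 11761 regions of all 4 lists, at 5.51 in each Sin3a list.

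In strength the members lay below regions that had a FLAG peak in 1 line only, but closer to them than to regions of all 4 lists. Regions with FLAG in the Nanog + Sin3a line only (194 regions) had median Sin3a folds of 4.22 in the Nanog + Sin3a line and 3.98 in the Sin3a line, and those with FLAG in the Nanog line only (996 regions) had 4.38 and 4.26. In the same order of Sin3a lists, the median −log10 q was 6.54 and 6.74 at the members. It was 7.55 and 6.98 with FLAG in the Nanog + Sin3a line only, and 8.24 and 8.30 with FLAG in the Nanog line only. In both Sin3a lists, 104 members (14%) had a −log10 q of at least 10, against 7051 of the 12951 regions with a FLAG peak (54.4%). A −log10 q of at least 25 in both was reached by 6 members.

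Peaks at the members were rare among the strongest Sin3a peaks. When each Sin3a list was cut into 5 equal parts by −log10 q, 0.658% of the strongest part of the Nanog + Sin3a list were in members (24 of 3647, interval 0.443 to 0.977%), 5.57% of the third, 6.77% of the fourth and 5.35% of the weakest part. In the Sin3a list the shares were 0.612% of the strongest part (21 of 3434), 5.13% of the third, 6.90% of the fourth and 7.05% of the weakest. The parts hold all peaks of a list, also those in regions without a Sin3a peak of the other line, which the rule leaves out. Peak strength also bears on the choice of members, so these shares are a description, with no test. The strongest peak of a member ranked 523 of 18231 in the Nanog + Sin3a line and 659 of 17168 in the Sin3a line.

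**Figure D2:**
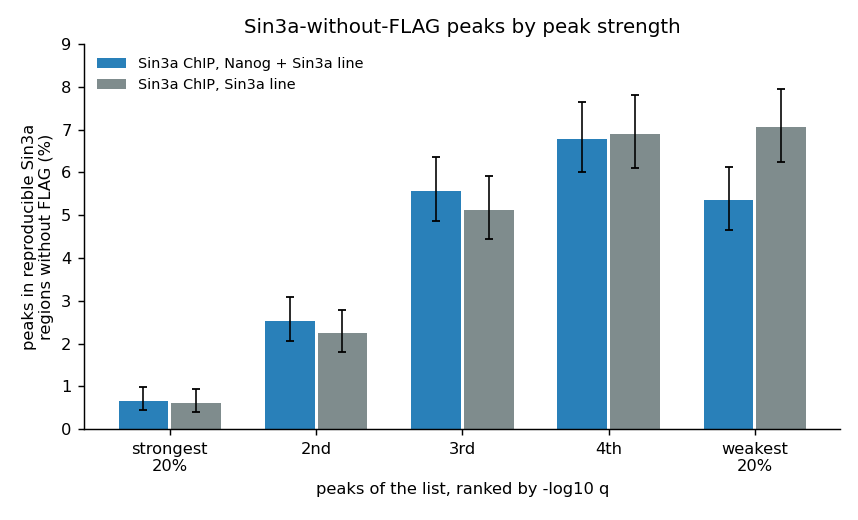
Share of the Sin3a peaks of each list (vertical axis, %) that lie in the 742 members, by strength within the list; bars start at 0 and error bars are 95% Wilson intervals for counting error. The share is at most 0.658% in the strongest of the 5 parts and between 5.35 and 7.05% in the weakest.

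The member regions were narrow, with a median of 412.5 bp (397 to 425) and a largest width of 1351 bp, against a median of 856 bp at regions with a FLAG peak. Regions with FLAG in 1 line were nearer to the members in width. Their medians were 476.5 bp with FLAG in the Nanog + Sin3a line only and 541 bp with FLAG in the Nanog line only, against 894 bp for all 4 lists. With the regions with both Sin3a peaks cut into 5 equal parts by width, 19.9% of the narrowest part (544 of 2739) and 0.110% of the widest part (3 of 2738) were members. Width bears on the chance to share a base with a FLAG peak, so it is not separate from the choice of members. Strength and width each went with the share. Members made up 24.4% of the regions under 500 bp with a mean −log10 q under 10 (404 of 1654), 13.2% of those under 500 bp with 10 or more, 4.77% of the wider and weaker ones, and 0.997% of the wide and strong ones (78 of 7820).

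The strongest members, by mean −log10 q over both Sin3a lists, are described first. chr7:91233517-91234079 had a fold of 7.83 in the Nanog + Sin3a line, from 88 fragments (Poisson interval 70.6 to 108), and of 9.01 in the Sin3a line, from 111 fragments (91.3 to 134). chr5:116181248-116181619 had folds of 10.6 in the Nanog + Sin3a line (82 fragments) and 9.33 in the Sin3a line (84 fragments). The fold of 10.6 was the highest of any member in the Nanog + Sin3a list. The first of these regions lay 742 bp from a FLAG peak and the second 37.6 kb. The top of the list thus holds sites beside FLAG peaks and sites far from them.

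chr11:86357302-86357906 had folds of 10.3 in the Nanog + Sin3a line and 9.08 in the Sin3a line, with a FLAG peak 212 bp away. chr4:124537623-124538083 had 9.61 and 9.55 in the same order of lines, with the nearest FLAG peak at 8.90 kb. chr5:92787124-92787467 had 9.48 and 8.68, with the nearest FLAG peak at 5.62 kb. At these 3 sites the ratio of the folds, Nanog + Sin3a line over Sin3a line, lay between 1.01 and 1.13.

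Others of the 10 strongest had the lower fold in the Nanog + Sin3a line. chr10:28866465-28866969 had a fold of 7.31 in the Nanog + Sin3a line (56 fragments) and 9.66 in the Sin3a line (87 fragments). chr9:119804234-119804710 had 7.82 and 9.11, and a FLAG peak only 42 bp away. chr5:130512207-130512595 had 6.53 and 8.69, with summits 1 bp apart in the 2 lists. The widest gap was at chr3:98142478-98143180, where the fold was 5.65 in the Nanog + Sin3a line, from 43 fragments (31.1 to 57.9), and 10.1 in the Sin3a line, from 91 fragments (73.3 to 112). chr14:28409481-28409840, 87.6 kb from the nearest FLAG peak, had the higher fold in the Nanog + Sin3a line, 7.84 against 6.78 in the Sin3a line. Of these 10 sites, 4 had a FLAG peak within 1 kb and 2 had none within 10 kb.

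Whether Sin3a occupancy at sites without a FLAG peak differed between the line with added Nanog and the line without it was asked next. The median log2 ratio of the Sin3a folds, Nanog + Sin3a line over Sin3a line, was 0.05 over the members (interval of the median 0.02 to 0.08) and -0.01 over regions with a FLAG peak. It was 0.03 over regions with FLAG in the Nanog line only and 0.03 over those with FLAG in the Nanog + Sin3a line only. Both values lay within the members' interval. A ratio of 1.5 or more, after the median ratio of all 13693 regions had been set to 1, was found at 34 members (4.58%, interval 3.30 to 6.33%), against 3.62% of all 13693 regions. A ratio of 1.5 or more in the other direction was found at 22 members (2.96%, 1.97 to 4.45%), against 3.60% of all these regions. Set against regions with a FLAG peak, the share of members differed by 1.01 points for higher folds (-0.31 to 2.79) and by -0.67 points for lower folds (-1.73 to 0.84), both intervals including 0. In this setting the shares of members past 1.5 were near the background in both directions, with 1 list per line and no replicate check. The share of higher folds was 10.6% when Sin3a peaks were matched by direct overlap, against 4.97% of all regions in that setting, where the peak of the Nanog + Sin3a line was not itself required to lack FLAG. It was 1.51% with Sin3a peaks of −log10 q 5 or more, against 2.54% of all regions.

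**Figure D3:**
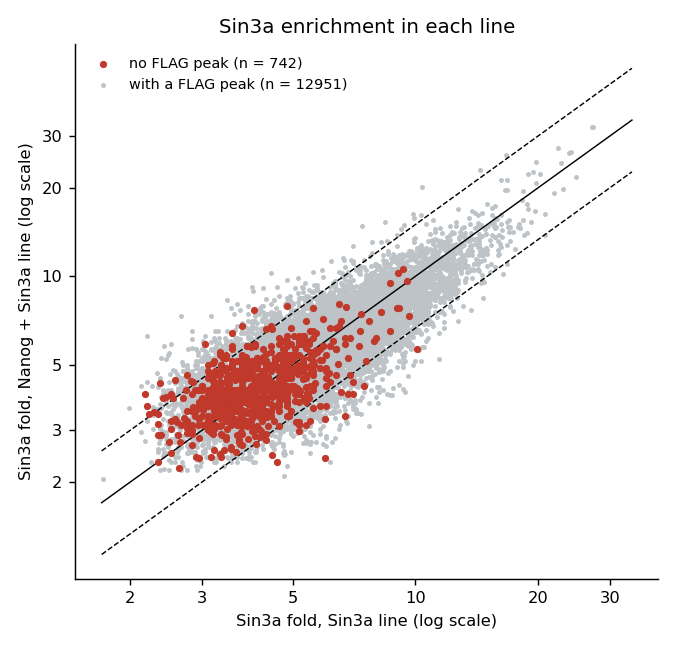
Authors' Sin3a fold at the summit in the Nanog + Sin3a line (vertical) against the Sin3a line (horizontal), both log axes, 1 point per region with both Sin3a peaks. The solid line marks equal folds and the dashed lines a ratio of 1.5 before centring, which divided ratios by 0.997. Most of the 742 members (red) lie between the dashed lines, in the lower part of the range.

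The members with the largest differences, among the 398 at which both lists had a −log10 q of at least 5, were as follows. chr4:119212635-119213098 had a fold of 7.69 in the Nanog + Sin3a line and 4.02 in the Sin3a line, a ratio of 1.91. Its fragment numbers were 59 and 56, and the recovered control level at the summit was 5.05 in the Nanog + Sin3a line and 9 in the Sin3a line. chr15:89185428-89186040 had 6.80 in the Nanog + Sin3a line (52 fragments, 38.8 to 68.2) and 3.76 in the Sin3a line (33 fragments, 22.7 to 46.3). chr11:79407033-79407368 had 7.95 (61 fragments) and 4.85 (43 fragments), and lay 29.0 kb from a FLAG peak. chr8:108217581-108218038 had 6.65 and 4.31, from 59 and 54 fragments, with control levels of 6 in the Nanog + Sin3a line and 8 in the Sin3a line. At the sites on chromosomes 15 and 11 the control was at its lowest level in both lists.

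The smallest ratios were between 0.55 and 0.57. chr16:5202782-5203300 had a fold of 3.26 in the Nanog + Sin3a line (41 fragments) and 5.99 in the Sin3a line (67 fragments), with control levels of 9 and 7. After the region on chromosome 3 described above came chr9:53822447-53823280, with 3.99 (30 fragments) and 7.04 (63 fragments), and chr10:44249084-44250008, with 4.25 (32 fragments) and 7.47 (67 fragments). The last 2 held 2 Sin3a peaks in the Nanog + Sin3a line and 1 in the Sin3a line. Fragment numbers are given before scaling, and 1 fragment counted as 0.772 in the pileup of the Nanog + Sin3a line and as 0.70 in that of the Sin3a line.

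The Sin3a summits of both lines lay close together at the members. Their median distance was 49.5 bp (46 to 55), and 70.8% lay within 100 bp of each other, against 53 bp and 70.0% at regions with a FLAG peak. The difference in the share within 100 bp was 0.78 points (-2.69 to 4.03). Width limits how far apart the summits can lie, and the members were narrower, so the shares are not like for like. The members also had fewer fragments. In 713 of the 742 members each Sin3a list held 1 peak. The 3 widest members had further spread signal. chr7:148139882-148141232 (1351 bp) held 2 peaks in each list, chr2:27280828-27282118 (1291 bp) had summits 654 bp apart, and chr2:71625080-71626340 (1261 bp) had summits 465 bp apart.

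With all listed peaks counted, most of the members lay within 1 kb of a FLAG peak. The nearest FLAG peak of either line was a median of 547 bp away (465 to 634), with 48.1% of members within 500 bp, 60.6% within 1 kb (450 regions, interval 57.1 to 64.1%) and 79.4% within 10 kb. Beyond 10 kb from any FLAG peak lay 153 members (20.6%, 17.9 to 23.7%), and 12 of these were over 100 kb away. The distance depended on the setting. Its median was 10650 bp, with 48.4% within 10 kb, when all peaks needed a −log10 q of at least 10. That setting held 1005 members and left out weaker FLAG peaks too, so regions with a weaker listed FLAG peak could be members. When peaks were joined across gaps of up to 500 bp, the median was 7657 bp, with 55.9% within 10 kb. Regions with a Sin3a peak in the Nanog + Sin3a line only and no FLAG peak gave a median of 472.5 bp, with 64.2% within 1 kb. Regions with a Sin3a peak in the Sin3a line only and no FLAG peak gave 1717 bp and 43.1%.

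**Figure D4:**
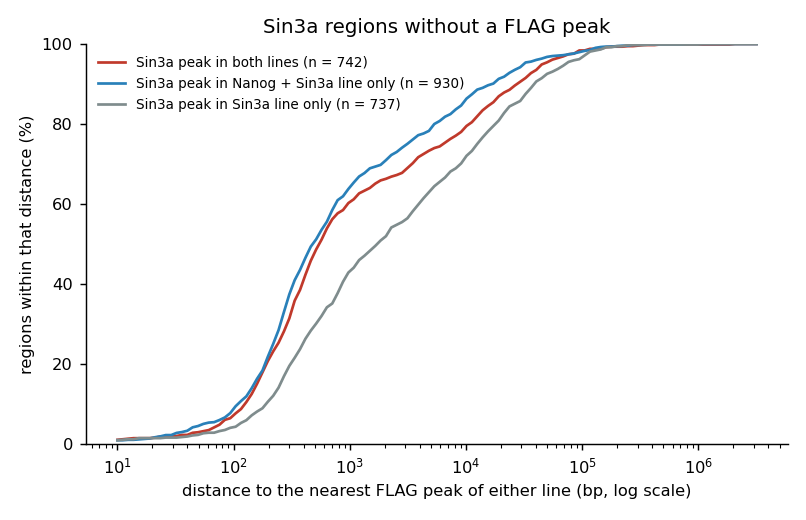
Cumulative share of Sin3a regions without a FLAG peak (vertical, %) by distance to the nearest FLAG peak of either line (horizontal, bp, log axis), for regions with a Sin3a peak in both lines or in 1 line only. The curve of the 742 members is steepest between 100 bp and 1 kb, where it reaches 60.6%, and the regions of the Sin3a line only lie below it, at 43.1%.

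The rule is a threshold on this distance, so the distance from other Sin3a regions to the next FLAG peak outside the region itself is given beside it as a description, with no test. A FLAG peak within 1 kb was found for 60.6% of the members, against 49.5% of regions with FLAG in the Nanog + Sin3a line only, 50.2% of regions with FLAG in the Nanog line only and 38.0% of regions of all 4 lists. Among regions under 500 bp wide the shares were 57.3% of members, 47.2% and 47.7% of the regions with FLAG in 1 line, in the same order, and 40.9% of regions of all 4 lists. The comparison was chosen after the values were seen, and FLAG peaks merged into a region of another class do not count toward its next FLAG peak.

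Just inside the threshold, chr8:72525410-72525844 touched a FLAG peak with 0 bases between them, chr7:28193694-28194117 had 1 base between and chr13:49062139-49062655 had 4. Their Sin3a folds were 3.19, 3.87 and 3.26 in the Nanog + Sin3a line and 2.60, 3.65 and 3.73 in the Sin3a line. Just outside it, chr9:121206887-121208269 shared at most 9 bases with a FLAG peak, chrX:147481866-147482510 shared 21 and chr12:80107570-80108362 shared 24, all from the FLAG ChIP of the Nanog line. Members with a FLAG peak within 100 bp numbered 54, and regions that shared 100 bases or fewer with a FLAG peak numbered 23 of 12951.

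Over all 43298 regions with a FLAG peak, 39.3% also held a Sin3a peak and 60.7% held FLAG alone. Of the 450 members within 1 kb of a FLAG peak, the nearest one lay in a region with a Sin3a peak in 81.3% (366), among them 270 regions of all 4 lists, and in a region with FLAG alone in 18.7% (84). Of the 153 members beyond 10 kb, the nearest FLAG peak lay in a FLAG-only region in 61.4% (94), close to the share over all FLAG regions. Within 1 kb of a region of all 4 lists lay 311 members in all.

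Members beyond 10 kb from any FLAG peak were about as strong as those within 1 kb of one. Their median Sin3a fold was 4.22 in the Nanog + Sin3a line (interval of the median 3.99 to 4.38) and 4.14 in the Sin3a line (3.87 to 4.34), against 4.12 (3.99 to 4.22) and 3.87 (3.76 to 3.98) for members within 1 kb. In both lists, 23 of the 153 members beyond 10 kb (15.0%) and 59 of the 450 within 1 kb (13.1%) had a −log10 q of at least 10, a difference of 1.92 points (-3.98 to 9.02). Median widths were 391 bp (367 to 440) beyond 10 kb and 423.5 bp (406 to 453) within 1 kb. These distance classes were set after the values were seen.

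The 3 members farthest from any FLAG peak had folds between 3.61 and 4.42. chr14:115441442-115441775 lay 1.88 Mb from the nearest one and had folds of 3.61 in the Nanog + Sin3a line (27 fragments) and 3.65 in the Sin3a line (32 fragments). chr8:55614559-55615334, at 453 kb, had 3.99 and 4.42, and chrX:54306528-54306894, at 306 kb, had 4.12 and 3.76. Larger folds were found among the strongest of the 153. After the regions on chromosomes 5 and 14 named above came chr2:132607369-132607735, 33770 bp away, with 5.89 in the Nanog + Sin3a line (75 fragments) and 5.50 in the Sin3a line (85 fragments), and chr12:4482975-4483602, 51468 bp away, with 8.08 (62 fragments) and 6.49 (58 fragments). These last 2 regions were named after their values were seen.

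The control signal under the members was more often at its lowest level than at regions with a FLAG peak. Its recovered level at the summit was at the lowest value of the list in 63.5% of members in the Nanog + Sin3a list and 59.6% in the Sin3a list, against 56.9% and 53.6% of regions with a FLAG peak. The differences were 6.62 points (2.98 to 10.1) and 6.10 points (2.42 to 9.68), toward the lowest control level in the members. In the same order of lists, the shares were 62.2 and 57.2% with FLAG in the Nanog + Sin3a line only, near those of the members. With FLAG in the Nanog line only they were 56.8 and 54.9%. The members differed by FLAG distance, with 64.9 and 60.1% within 1 kb, 55.5 and 54.0% at 1 to 10 kb, and 66.7 and 63.4% beyond 10 kb. The control level enters the fold and p-value by which a peak is listed, and the members' peaks were weaker. It thus bears on the choice of members, and these shares are a description, with no test.

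The members were spread over all 19 autosomes and the X chromosome, from 7 on chromosome 18 to 79 on chromosome 11. Another member lay within 100 kb of 187 of them (25.2%) and within 1 kb of 45 (6.06%). Of the 996 regions with FLAG in the Nanog line only, 24.3% and 5.92% had another of their class as near. Over all 13693 regions with both Sin3a peaks, 89.0% and 25.3% had another such region as near. These shares depend on how many regions a class holds. The densest windows of 1 Mb were on chromosome 10, with 8 members among 75 regions with both Sin3a peaks between 80 and 81 Mb and 6 among 72 between 79 and 80 Mb, and on chromosome 17, with 6 among 24 between 28 and 29 Mb. Within 1 kb of a FLAG peak lay 7 of the 8 and 5 of the 6 members in the chromosome 10 windows, and 1 of the 6 in the chromosome 17 window. These windows were chosen after the values were seen. The strongest member of the chromosome 17 window, chr17:28216706-28217262, had folds of 6.25 in the Nanog + Sin3a line and 5.03 in the Sin3a line, and chr17:28717340-28717701, 12286 bp from a FLAG peak, had 4.50 and 6.04. On chromosome 6, 2 of 40 regions with both Sin3a peaks between 50 and 56 Mb were members, and 0 of 121 between 120 and 130 Mb, which allows a share of up to 2.48% (3 counts of 121).

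**Figure D5:**
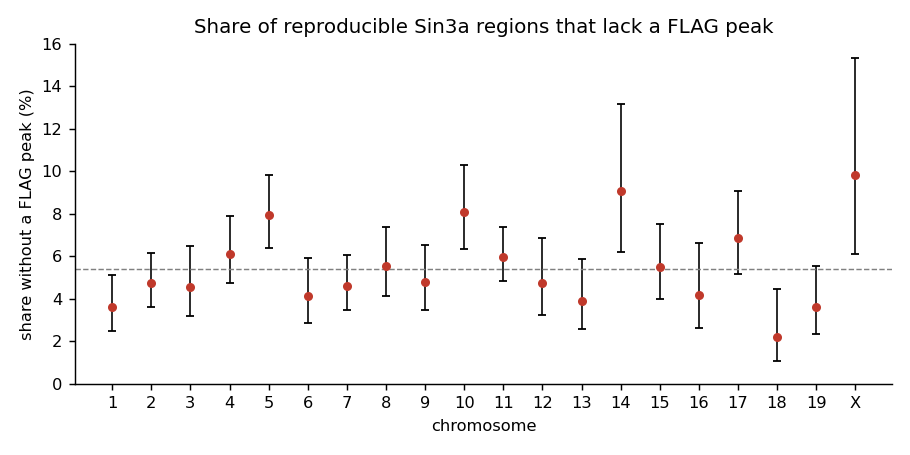
Share of the regions with both Sin3a peaks that lack a FLAG peak (vertical, %) on each chromosome (horizontal); points are shares, error bars 95% Wilson intervals for counting error, and the dashed line is the share over all chromosomes, 5.42%. Chromosomes X, 14, 10 and 5 lie highest, between 7.95 and 9.82%, and chromosome 18 lowest, at 2.20%.

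The X chromosome carried 16 members, 2.16% of them, against 1.14% of the regions with both Sin3a peaks and a FLAG peak, a difference of 1.02 points (0.17 to 2.35). Of regions with FLAG in the Nanog line only, 1.51% were X-linked, a difference of 0.65 points with an interval that included 0 (-0.62 to 2.09). Of regions with FLAG in the Nanog + Sin3a line only, 2.58% were X-linked (5 of 194). Within classes of strength or width, the intervals of the difference from all regions with a FLAG peak included 0. With a mean −log10 q under 10, 2.45% of members and 2.37% of regions with a FLAG peak lay on the X chromosome, a difference of 0.08 points (-1.02 to 1.75). With 10 or more, 1.18% of members (2 of 170) and 0.455% of regions with a FLAG peak did, a difference of 0.72 points (-0.15 to 3.73). Under 500 bp wide the difference was 0.64 points (-0.61 to 2.47). The strongest X-linked member, chrX:71573980-71574470, had folds of 5.52 in the Nanog + Sin3a line and 5.51 in the Sin3a line, 15532 bp from a FLAG peak.

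Chromosome 5 held 77 members, 10.4% of them, against 6.89% of regions with a FLAG peak, a difference of 3.49 points (1.45 to 5.93). Among regions with a mean −log10 q under 10 the difference was 4.80 points (2.42 to 7.67), and among those under 500 bp wide 4.65 points (1.95 to 7.83). With a mean −log10 q of 10 or more it was 1.96 points, with an interval that included 0 (-1.62 to 7.32). On chromosome 10 the members' share was 7.95% against 5.17%, a difference of 2.78 points (1.00 to 4.98), and on chromosome 14 it was 3.23% against 1.85% (1.38 points, 0.30 to 2.93). Among regions that were both weak and narrow, the chromosome 5 difference was 5.47 points (2.37 to 9.13), whereas the intervals for chromosomes 10 and 14 included 0. On the low side, chromosome 18 held 0.943% of members against 2.40% of regions with a FLAG peak (-1.46 points, -2.02 to -0.44). Chromosome 1 held 3.77% against 5.80% (-2.03 points, -3.25 to -0.35). The autosomes were chosen as the highest or lowest of 19 after their values were seen, and the intervals do not allow for that choice.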

How the data were processed

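ChIP-seq of mouse pre-iPSCs was available as 4 peak lists, 1 per group of 2 replicates. Per the submitters' processing notes, build mm9, FastQC 0.10.1, Bowtie 1.0.0 and SAMtools 0.1.19 were used. For the peak caller, and for whether replicates were pooled, nothing is stated (not given in the sources used here). The deposited fold was taken as scaled ChIP pileup plus 1 over control plus 1 at the summit. The p-value was taken as a Poisson upper tail. Both forms were assumed, and the fragment numbers and control levels rest on them. The deposited −log10 p and −log10 q are the authors' own values. The deposited score equals 10 times the −log10 q without decimals in 100% of peaks.

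Peaks were merged by 1 shared base, and the peak with the highest −log10 q stood for its list in a region. Merged regions equalled those of bedtools 2.31.1. Whole fragment numbers were recovered from fold and −log10 p, with each scaled pileup within 0.003 of a whole multiple of the list's scaling, by code tested on simulated data. Shares carry Wilson, differences Newcombe, medians order-statistic and fragments exact Poisson intervals. No p-value was computed. Named regions were the 10 strongest, those with the 4 largest and 4 smallest fold ratios, the 3 nearest to, farthest from and just past the FLAG threshold, and the 3 widest, besides those said to be chosen later. Members and lists were chosen with earlier results of these data known.

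The reference tables at hand are of another build (GRCm38), so genes, promoters and sequence features were not analysed here. Scripts ran under Python 3.11.15 with SciPy 1.17.1, pandas 2.3.3, NumPy 2.4.6 and Matplotlib 3.10.9.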

Additional observations from a re-analysis of the deposited data

How the results depend on the processing

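No paired analysis was possible because the samples of a group share 1 list of peaks with no value for either sample, so no replicate could be left out either. Promoter windows and motifs were not run, since no genome or annotation of mm9 was used here. Depth limits what is listed: FLAG signal too weak to be listed cannot be seen at the members. Of 91 recomputed values, 36 stayed within the interval of the main value, or for a count within 1.5 times of it, and 55 moved. The cause was not tested.

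The main values were 742 members (5.42% of regions with both Sin3a peaks), median folds of 4.11 (Nanog + Sin3a line) and 3.94 (Sin3a line), width 412.5 bp, 49.5 bp between Sin3a summits, FLAG distance 547 bp and 79.4% with FLAG within 10 kb. With 50% of the shorter peak the FLAG distance was 455 bp. With summits within 200 bp there were 1851 members (14.5%), with folds of 4.77 and 4.63, width 654 bp, summits 40 bp apart, FLAG distance 0 bp and 92.4% within 10 kb, since FLAG peaks may then overlap a member. Joining across gaps of up to 500 bp left 340 members (2.81%), with FLAG distance 7657 bp and 55.9% within 10 kb. With Sin3a peaks of −log10 q 5 or more there were 398 members (3.58%), folds of 4.68 and 4.53, width 428.5 bp, summits 36 bp apart and 76.1% within 10 kb. With all lists at 5 or more the share was 6.76%, folds 4.66 and 4.50, width 494 bp, summits 43 bp apart, X share 1.33%, FLAG distance 985 bp and 73.2% within 10 kb. At 10 or more these were 14%, 6.04 and 5.95, 708 bp, 39 bp, 0.896%, 10650 bp and 48.4%, and the median log2 ratio was 0.00022. With all lists at 5 or at 10, weaker FLAG peaks were left out too, so regions that held one could be members. With direct overlap and no chaining the share was 6.13%, the fold in the Nanog + Sin3a line 4.18, width 325 bp, summits 60 bp apart, FLAG distance 447 bp, 82.4% within 10 kb and the median log2 ratio 0.0896. FLAG within 1, 5 and 50 kb gave 60.6, 73.6 and 95.4%.

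At a fold ratio of 1.5 or more, 4.58% of members were higher and 2.96% lower, against 3.62 and 3.60% of all regions with both Sin3a peaks. With Sin3a peaks at 5 or more the shares were 1.51 and 1.76%, against 2.54 and 2.80% of all regions in that setting. With all lists at 5 the higher share was 1.86%, against 2.54%. At 10 the shares were 1.99 and 1.09%, against 1.90 and 2.14%. With direct overlap the higher share was 10.6%, against 4.97%. A ratio of 2 was reached by 0% of members higher and 0.135% lower, with no share over all regions at hand for that ratio.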
